A study of Mus musculus with 4 samples.

Results

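The mouse gp49 receptors and 4 further receptors with inhibitory tails were followed in regulatory T (Treg) cells of the large intestine (LI) that lacked or kept the histone methyltransferase Setd2. The members were all rows of the deposited table named *Lilr4b*, *Lilrb4a*, *Lair1*, *Cd300a*, *Cd300lf* or *Cd200r1*. These 6 symbols gave 7 rows of 53379, because *Lilrb4a* names 2 gene identifiers. The members were chosen with their KO and control values known, so their differences between the groups are given as a description and were not tested.

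RNA-seq was performed on CD3+CD4+YFP+ Treg cells sorted from the steady-state LI of adult C57BL/6 mice, with 2 libraries of the control and 2 of the KO genotype. Cells of 2 to 3 mice were combined for each library, and an SD below therefore describes how such pools varied. Control mice carried Foxp3-YFPcre with 1 floxed and 1 intact copy of *Setd2* (*Setd2* f/+), and KO mice carried the same Cre with 2 floxed copies (*Setd2* f/f). Both groups thus shared the Cre, and the deletion was driven from the *Foxp3* locus and not confined to intestinal Treg cells. The values are FPKM, fragments mapped to a transcript scaled by its length and by the mapped total, which can be set side by side between genes because they are per length. In 2172 of the top 5000 places all libraries carried equal values, as quantile normalization gives. The deposited FPKM may therefore not be plain scaled fragments. Whole-gene *Setd2* was 38.2 and 27.4 FPKM in the controls and 26.3 and 36.3 in the KO libraries (log2 fold change -0.06, SE 0.21, limma adjusted p = 0.927), which does not check the genotype because transcripts without the floxed part still count.

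The gp49 proteins are type I membrane receptors with immunoglobulin domains, best known from mast cells and myeloid cells and also found on activated T cells. They are the mouse relatives of human LILRB4. In receptors of this kind, a tyrosine in an immunoreceptor tyrosine-based inhibitory motif (ITIM) of the cytoplasmic tail is phosphorylated and recruits the phosphatases SHP-1, SHP-2 or SHIP-1, which dampen activating signals. *Lilrb4a* encodes gp49B, whose tail carries ITIMs, and *Lilr4b* encodes gp49A, which has no ITIM in its tail.

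*Lilr4b* (ENSMUSG00000112023, chr10:51480632-51486703, plus strand, GRCm38) lies just before *Lilrb4a* (ENSMUSG00000112148, chr10:51490956-51496611, plus strand). The second row named *Lilrb4a* (ENSMUSG00000062593, chr10:51480612-51496613, plus strand) is named *Gm49339* in GENCODE M21 and spans both genes. Its coding transcripts start in the first exon of *Lilr4b* (51480640-51480753 in 1 of them) and continue in the second exon of *Lilrb4a* (51491197-51491232). It is called the *Lilrb4a* readthrough row from here on.

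**Figure D1:**
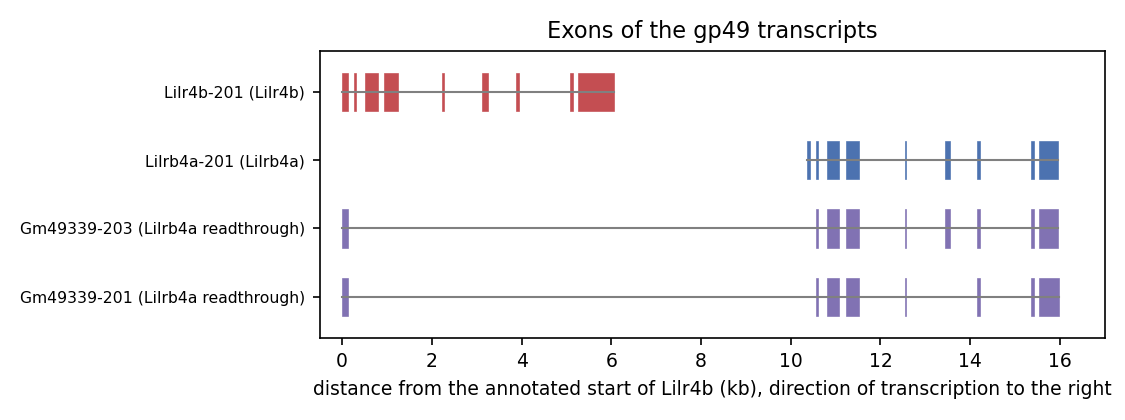
Exons of 1 *Lilr4b*, 1 *Lilrb4a* and 2 readthrough transcripts of GENCODE M21, drawn to scale by distance in kb from the annotated start of *Lilr4b*, with boxes for exons and lines for introns. Both readthrough transcripts take their first exon from *Lilr4b* and the rest from *Lilrb4a*.

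The coding end of both genes is shown because it decides which of them encodes an inhibitory tail. The stretches below run 5′ to 3′ from the first base of exon 8 to the stop codon, on the plus strand of GRCm38, at chr10:51485713-51485760 for Lilr4b-201 and, with the intron left out, at chr10:51495994-51496244 for Lilrb4a-201. Capitals mark the run of C, the codons of each tyrosine motif and the stop codon.
Lilr4b-201: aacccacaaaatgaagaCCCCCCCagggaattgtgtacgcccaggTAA
Lilrb4a-201: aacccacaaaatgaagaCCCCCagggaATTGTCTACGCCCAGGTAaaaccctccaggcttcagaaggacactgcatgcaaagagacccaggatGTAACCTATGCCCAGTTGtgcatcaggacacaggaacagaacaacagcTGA
The run of C had 7 bases in *Lilr4b* and 5 in *Lilrb4a*, and exon 8 was 68 and 66 bases long. With 2 more bases than *Lilrb4a*, the *Lilr4b* frame met a stop codon inside exon 8, with 20 bases of the exon left, so that the coding part ended after 303 codons. In *Lilrb4a* the frame ran on to 335 codons. The motif searched was a tyrosine preceded at the second place before it by isoleucine, valine, leucine or serine and followed at the third place by isoleucine, leucine or valine. From exon 8 on, it was found in frame 2 times in *Lilrb4a*, at coding bases 892-909 and 958-975, and 0 times in *Lilr4b*. Both genes held 1 further match at coding bases 22-39, near the start codon and outside the tail.

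Up to exon 8, 829 of 864 coding bases were identical between the genes (95.9%), and 35 differed. This likeness bears on how reads are assigned. Of all stretches of 150 bases, the length of a read, in the coding transcripts of *Lilr4b*, 5.07% also occurred in *Lilrb4a*, and 94.9% occurred in neither of the other rows. By these transcripts, which are those of GENCODE M21, *Lilr4b* and *Lilrb4a* could be told apart by most reads. However, 85.2% of the stretches of *Lilrb4a* also occurred in the readthrough row, and 4.19% of those of the readthrough row occurred in no other. The authors quantified on an older GENCODE release, whose transcripts were not examined. The division of reads between the rows named *Lilrb4a* rests on the estimate of RSEM, and their values are uncertain one by one.

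**Figure D2:**
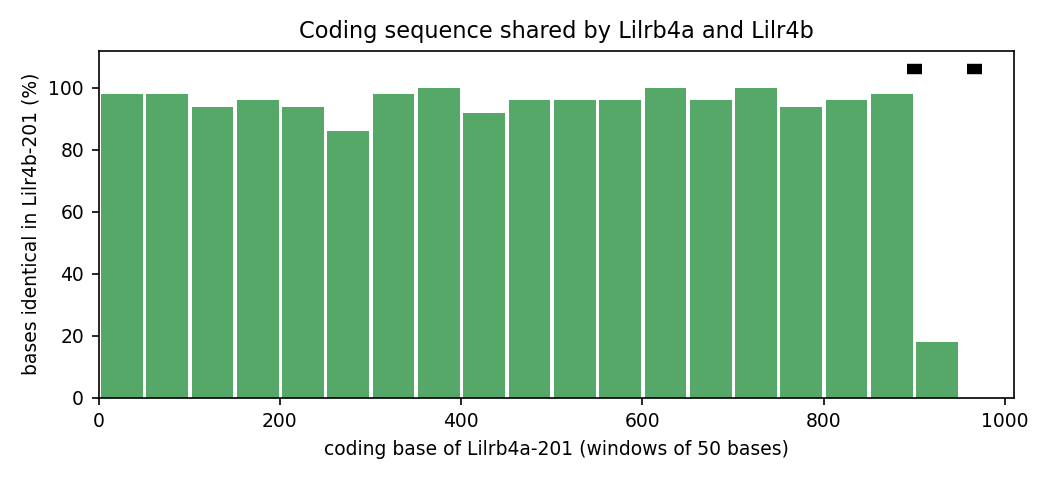
Percent of bases of Lilrb4a-201 that are identical in the aligned coding sequence of Lilr4b-201, in windows of 50 coding bases, with the black bars marking the 2 tyrosine motifs of the tail. Identity is high to the end of the *Lilr4b* coding sequence, which stops before the second motif. Past that stop, *Lilrb4a* bases mostly have no aligned coding base and count as not identical. The *Lilr4b* sequence after its stop was not compared.

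The promoter of *Lilr4b* is shown because it holds the start of *Lilr4b* and of the readthrough transcripts. The sequence is that of RefSeq (GRCm38.p6), chr10:51480362-51480661, plus strand, and capitals mark matches on either strand to the STAT motif TTCNNNGAA and the ETS motif ACAGGAA.
Lilr4b promoter: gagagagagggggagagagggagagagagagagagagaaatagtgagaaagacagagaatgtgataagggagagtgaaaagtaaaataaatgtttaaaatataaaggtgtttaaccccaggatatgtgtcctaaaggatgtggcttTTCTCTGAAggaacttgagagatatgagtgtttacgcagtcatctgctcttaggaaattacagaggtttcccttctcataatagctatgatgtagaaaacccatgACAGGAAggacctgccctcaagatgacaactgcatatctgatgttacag
The STAT letters occurred 1 time here and in 8.3% of 32851 promoters of the same length, and the ETS letters 1 time here and in 8.67%. Other motifs were searched on both strands and had 0 matches here. The AP-1 motif, with the letters TGANTCA, was found in 7.81% of all promoters. The motif of GATA factors, searched as AGATAA, was found in 11.2%. The RUNX motif, searched as TGTGGT, was found in 16.8%, and the NFAT motif, searched as TGGAAA, in 21.4%. Promoters were also read for *Lair1*, with 0 matches to any of these motifs, for *Cd300a*, with 1 NFAT match, and for *Cd300lf*, with 1 RUNX and 1 NFAT match. A match is only a run of letters. *Lilrb4a* and *Cd200r1* had no entry among the promoters used, so theirs were not searched.

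Both gp49 genes were among the most abundant mRNAs of LI Treg cells and were higher in KO cells, and *Lilr4b* differed more than *Lilrb4a*. *Lilr4b* was 1015 and 1086 FPKM in the controls and 2310.4 and 2192 in the KO libraries. Every KO library was above every control library, and the lowest KO value was 2.02 times the highest control value. The means were 1050 ± 50.2 (SD, n = 2) in control and 2251 ± 83.5 (SD, n = 2) in KO cells, a ratio of 2.14 (log2 fold change 1.10, SE 0.06). The SE of the members and of their sums is the plain one from the spread of the pools. The SE of all other genes comes from limma, which borrows spread from all genes tested, so the 2 kinds are not comparable. Among 21865 protein-coding rows ordered by FPKM, *Lilr4b* stood at places 92 and 82 in the controls and 34 and 36 in the KO libraries.

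*Lilrb4a*, which encodes a receptor with an inhibitory tail, was 688 and 728 FPKM in the controls and 1032 and 1061 in the KO libraries. The groups did not overlap, with a lowest KO value 1.42 times the highest control value. The means were 708 ± 28.2 (SD, n = 2) and 1047 ± 20.8 (SD, n = 2), a ratio of 1.48 (log2 fold change 0.56, SE 0.05). It stood at places 149 and 140 in the controls and 90 and 85 in the KO libraries. The coding transcripts of the readthrough row hold 3 in-frame tyrosine motifs each, as Lilrb4a-201 does, so this row also encodes an inhibitory tail. It was 141 and 168 FPKM in the controls and 235 and 251 in the KO libraries. It did not overlap between the groups either, at 154 ± 18.7 (SD, n = 2) against 243 ± 11.8 (SD, n = 2), a ratio of 1.57 (log2 fold change 0.66, SE 0.13). An antisense gene that overlaps *Lilrb4a*, *Gm40645*, was listed at 0 in 3 libraries and at 0.18 FPKM in KO 1, and RSEM was run with its default settings, which do not use strand, so reads of the 2 genes over their overlap cannot be told apart.

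The summed FPKM of the 3 gp49 rows, which depends less than any 1 row on how reads were divided between them, was 1844 and 1981 in the controls and 3577 and 3505 in the KO libraries. The KO sum was 1.85 times the control sum (1913 ± 97.1 to 3541 ± 50.9, SD, n = 2 each), and the log2 fold change was 0.89 (SE 0.05). The 3 rows together held 0.238% and 0.256% of all FPKM in the controls and 0.462% and 0.452% in the KO libraries. In bulk RNA, more gp49 mRNA per cell and more cells with gp49 mRNA cannot be told apart.

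The make-up of the summed gp49 FPKM also differed between the groups. *Lilr4b* made up 55% and 54.8% of the summed gp49 FPKM in the controls and 64.6% and 62.5% in the KO libraries. *Lilrb4a* made up 37.3% and 36.7% in the controls and 28.8% and 30.3% in the KO libraries. The readthrough row made up 7.66% and 8.46% in the controls and 6.56% and 7.17% in the KO libraries. It also encodes the inhibitory tail, so the *Lilrb4a* share alone is not the whole part with such a tail. The ratio of *Lilr4b* to *Lilrb4a* was 1.48 and 1.49 in the controls and 2.24 and 2.07 in the KO libraries. Both KO ratios were above both control ratios, and the difference of the log2 ratio was 0.54 (0.57 ± 0.01 in control, 1.10 ± 0.08 in KO, SD, n = 2 each). The ratio of the readthrough row to *Lilrb4a* was 0.205 and 0.23 in the controls and 0.227 and 0.237 in the KO libraries, and here the groups overlapped. These ratios come from the values that chose the members and were not tested. If the FPKM were quantile-normalized, each value was set by its place within its library. The shares, the ratios and their SDs would then not be plain ratios of reads.

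The other 4 members are single genes for receptors with inhibitory tails. *Cd200r1* encodes the receptor for CD200, which signals through adaptor proteins of the Dok family and not through an ITIM. It lies at chr16:44765736-44794978 on the plus strand and was 41.1 and 38.2 FPKM in the controls and 35.8 and 48.6 in the KO libraries. KO 1 was the lowest and KO 2 the highest of all, so the groups overlapped (39.6 ± 2.05 against 42.2 ± 9.02, SD, n = 2 each, log2 fold change 0.07, SE 0.22). The summed gp49 FPKM was 44.9 and 51.9 times that of *Cd200r1* in the controls and 99.9 and 72.1 times in the KO libraries.

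*Lair1*, *Cd300lf* and *Cd300a* were near the bottom of the scale. *Lair1*, the collagen receptor (chr7:4003402-4063204, minus strand), was 4.46 and 2.45 FPKM in the controls and 3.64 and 4.96 in the KO libraries, and the groups overlapped (log2 fold change 0.28, SE 0.38). *Cd300lf* (chr11:115116214-115133992, minus strand), whose product binds lipids of the cell membrane, was 2.33 and 1.41 FPKM in the controls and 1.02 and 1.70 in the KO libraries, and overlapped as well (log2 fold change -0.28, SE 0.31). *Cd300a* (chr11:114890041-114904654, plus strand), which encodes a receptor for phosphatidylserine on dying cells, was 0.53 and 0.48 FPKM in the controls and 0.57 and 1.39 in the KO libraries. The *Cd300a* groups did not overlap, but KO 1 lay close to the controls and the KO mean of 0.98 ± 0.58 (SD, n = 2) rested on KO 2 (log2 fold change 0.36, SE 0.30).

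**Figure D3:**
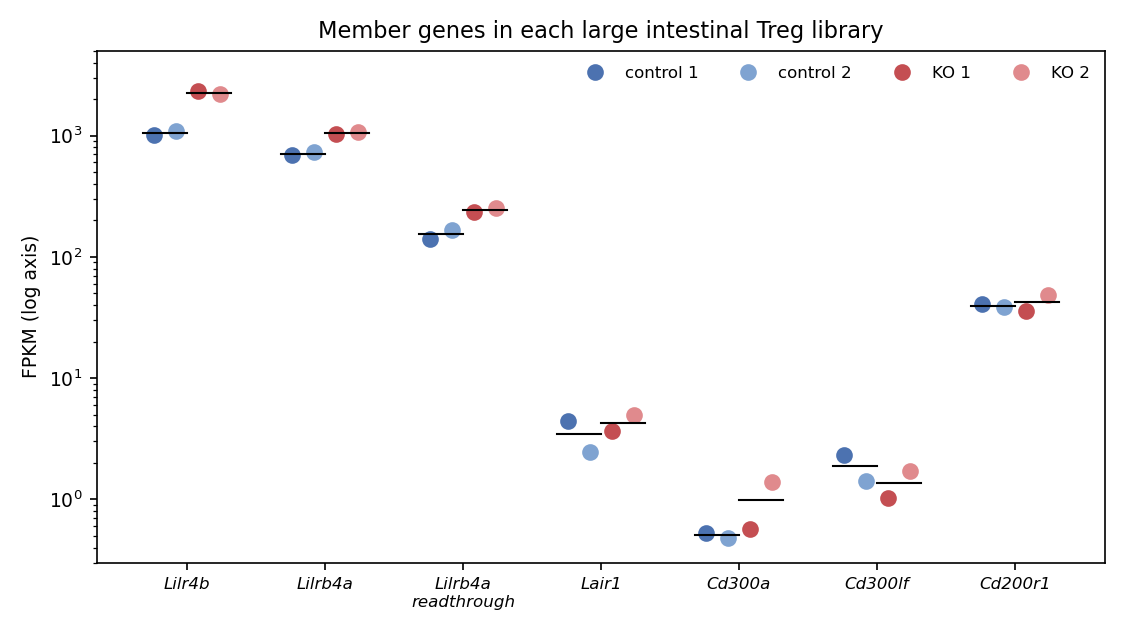
FPKM of the 7 member rows in each of the 4 LI Treg libraries on a log axis, with points for libraries (controls in blue, KO in red) and black lines for the group means. The 3 gp49 rows lie highest and their KO points lie above their control points, while *Cd200r1*, *Lair1* and *Cd300lf* overlap between the groups.

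By level, the order of the members was *Lilr4b*, *Lilrb4a*, the readthrough row, *Cd200r1*, *Lair1*, *Cd300lf* and *Cd300a* in both groups. The same order held in each of the 4 libraries. Of neighbours in this order, *Cd300lf* and *Cd300a* had ranges that overlapped within the KO group (1.02 to 1.70 and 0.57 to 1.39 FPKM), and the other neighbours did not overlap within a group.

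Of the 7 member rows, 4 passed the filter on low values (protein-coding, and a mean above 5 FPKM in the control or the KO group), and *Lair1*, *Cd300a* and *Cd300lf* did not. Over all 7639 genes that passed, 8.61% were higher and 7.57% lower in KO cells at an unadjusted limma p below 0.05, 0.314% were higher at a Benjamini-Hochberg adjusted p below 0.05, and 24.2% were higher and 22.9% lower with groups that did not overlap. Of the 4 member rows, the 3 gp49 rows were higher by the unadjusted p and by overlap, and 0 were lower, counts from which nothing is read because the members were chosen by this contrast. The log2 fold changes of all genes had a median of -0.004 and lay between -0.49 and 0.50 from the 5th to the 95th percentile. A larger log2 fold change was seen in 29 genes for *Lilr4b*, 176 for the readthrough row and 263 for *Lilrb4a*.

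**Figure D4:**
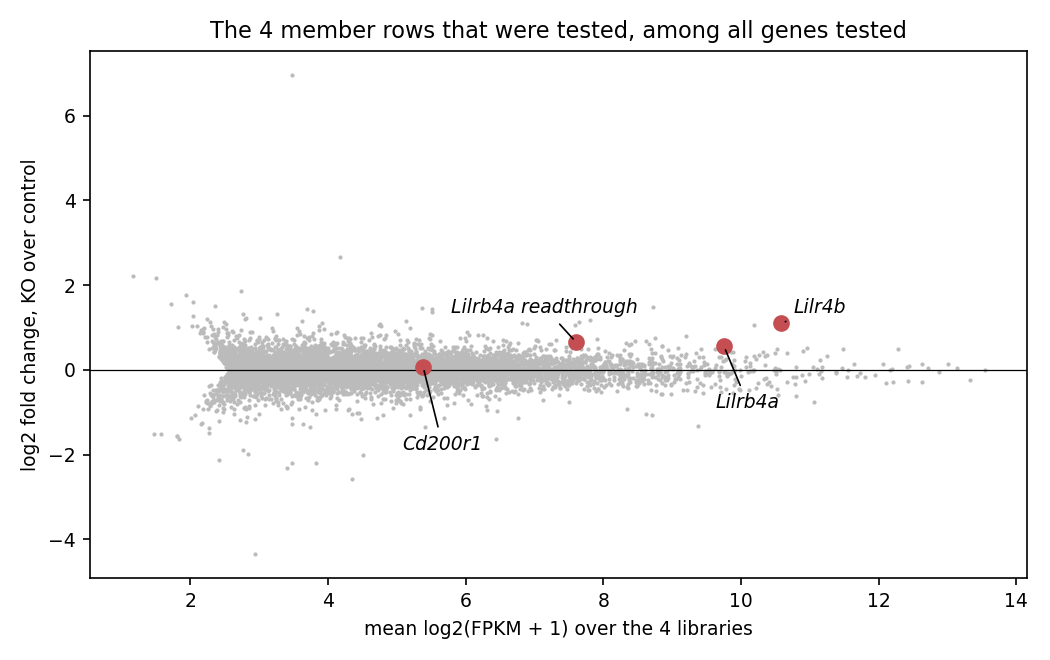
Log2 fold change of KO over control against the mean log2(FPKM + 1) over the 4 libraries for all 7639 genes tested (grey) and the 4 member rows among them (red). *Lilr4b* and *Lilrb4a* lie at the high end of expression with log2 fold changes of 1.10 and 0.56, and *Cd200r1* lies within the grey cloud near 0.

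The genes whose profile was most like that of *Lilr4b* were sought by the Euclidean distance between log2(FPKM + 1) profiles over the 4 libraries, each centred on its mean. The nearest was *Serpina3g*, an inhibitor of proteases, at a distance of 0.0207, with 74.1 and 78.1 FPKM in the controls and 167 and 161 in the KO libraries. It was followed by *Nmur1*, the receptor for the neuropeptide neuromedin U (0.0605), *Gng4*, a G protein gamma subunit (0.105), *Ncapd3*, a condensin subunit (0.13), and *Krt222*, a keratin relative (0.133). *Lilrb4a* was in place 158 (0.542) and the readthrough row in place 100 (0.473), since their differences between the groups were smaller than that of *Lilr4b*. With 4 libraries, likeness mostly means a similar difference between the groups.

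The genes next to the gp49 locus that passed the filter were read as well. The nearest on each side were *Ascc3*, 629 kb away with a log2 fold change of -0.13 (limma adjusted p = 0.703), and *Nus1*, 921 kb away with -0.13 (adjusted p = 0.81). Farther out, *Hace1* had a log2 fold change of 0.49 (unadjusted p = 0.0341, adjusted p = 0.267) and *Cep85l* of -0.45 (unadjusted p = 0.0588, adjusted p = 0.327), and all 4 adjusted values missed the threshold.

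Relatives, ligands and signalling partners of the members were taken from 7 lists with 73 gene symbols, of which 66 were found and 28 passed the filter. By an unadjusted limma p below 0.05, 5 of 28 were higher (17.9%) and 5 were lower (17.9%), against 8.61% and 7.57% of all genes. At an adjusted p below 0.05, 1 was higher and 0 were lower.

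The close relatives of the gp49 genes were barely detected. The 8 LILR, PIR and LAIR relatives found in the table, such as *Pirb* and *Lilra5*, were all below 1 FPKM in every library, with a highest value of 0.97. Of the 10 further CD300 genes, 8 stayed below 1 FPKM, 3 of which were listed at 0 in all libraries, and the highest values were 2.08 (*Cd300c2*) and 1.48 (*Cd300ld*). Neither list had a gene that could be tested. Among the 3 CD200 receptor relatives, *Cd200r2* was 1.47 and 0.47 FPKM in the controls and 1.55 and 3.86 in the KO libraries and was not tested, and 1 was tested. *Cd200r4*, an activating relative next to *Cd200r1*, was 10.04 and 7.35 FPKM in the controls and 11.4 and 14.4 in the KO libraries. It rose in KO cells by the unadjusted p (log2 fold change 0.52, SE 0.21, limma unadjusted p = 0.043, adjusted p = 0.292). The call was lost in 5 of 14 alternatives, among them those without control 2 (limma unadjusted p = 0.207) and without KO 2 (unadjusted p = 0.233).

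Of 14 genes for ligands of the members, 7 were tested. By the unadjusted p, 0 were higher and 2 lower, beside 8.61% and 7.57% of all genes. The median log2 fold change was 0.22 against -0.004 over all genes. *Cd200*, the ligand of the CD200 receptor, was 43.6 and 37.3 FPKM in the controls and 28.8 and 25.8 in the KO libraries, and was lower in KO cells (log2 fold change -0.55, SE 0.14, limma unadjusted p = 0.0062, adjusted p = 0.144), a call that was lost without KO 2 (unadjusted p = 0.0532). *Itgav*, the alpha v chain of integrins that bind LILRB4 and fibronectin, was 99.9 and 126 FPKM in the controls and 69.6 and 69.7 in the KO libraries (log2 fold change -0.68, SE 0.14, limma unadjusted p = 0.00158, adjusted p = 0.0857). For both genes the KO libraries lay below the controls, as for 22.9% of all genes tested. *Itgb3*, the beta chain that pairs with alpha v in the integrin that binds gp49B, went the other way at 7.62 and 11.7 FPKM in the controls and 13.2 and 11.8 in the KO libraries, and did not pass the test (log2 fold change 0.36, SE 0.22, limma adjusted p = 0.468). *Fn1*, which encodes fibronectin, was 2.93 and 2.81 FPKM in the controls and 0.94 and 1.02 in the KO libraries, too low to be tested. The highest of this list, *Apoe*, a ligand of human LILRB4, was 480 and 380 FPKM in the controls and 496 and 448 in the KO libraries, and the groups overlapped (log2 fold change 0.14, adjusted p = 0.663). The C1q genes, whose product binds LAIR1, had log2 fold changes of 0.23 (*C1qa*), 0.22 (*C1qb*) and 0.33 (*C1qc*), and none of them passed the test.

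Inhibitory tails act through the proteins they recruit. Of 8 such genes, 6 were tested, with 0 higher and 1 lower by the unadjusted p, beside 8.61% and 7.57% of all genes. *Ptpn6*, which encodes SHP-1, had a log2 fold change of 0.14 (SE 0.16, adjusted p = 0.717), and *Inpp5d*, which encodes SHIP-1, of 0.10 (SE 0.16, adjusted p = 0.82). *Dok2*, the highest of the list and an adaptor in CD200 receptor signalling, was 85.6 and 124 FPKM in the controls and 138 and 90.8 in the KO libraries, and the groups overlapped. *Rasa1*, a Ras GTPase-activating protein that binds Dok proteins, was 21.5 and 20.6 FPKM in the controls and 14.01 and 17.5 in the KO libraries, and was lower in KO cells (log2 fold change -0.40, SE 0.16, limma unadjusted p = 0.0427, adjusted p = 0.292). This call was lost in 4 of 14 alternatives, including those without control 1, control 2 or KO 1 (limma unadjusted p = 0.118, 0.0719 and 0.27).

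The 3 activating adaptors, which pair with receptors that have no signalling tail of their own, were each above both controls in KO 1 and KO 2. Over all genes tested, 24.2% were higher without overlap. Of the 3 adaptors, 1 passed the test at an unadjusted p, beside 8.61% of all genes. *Hcst*, which encodes DAP10, was 151 and 161 FPKM in the controls and 219 and 238 in the KO libraries (log2 fold change 0.55, SE 0.11, limma unadjusted p = 0.00143, adjusted p = 0.0821), and the unadjusted call was kept in 14 of 14 alternatives. *Fcer1g*, the Fc receptor gamma chain, had a log2 fold change of 0.30 (limma unadjusted p = 0.0754, adjusted p = 0.364), and *Tyrobp*, which encodes DAP12, of 0.43 (limma unadjusted p = 0.0858, adjusted p = 0.386).

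Other receptors with ITIMs or the related switch motif (ITSM) moved both ways. Of 20 genes, 11 were tested, and 3 were higher and 2 lower by the unadjusted p, beside 8.61% and 7.57% of all genes. The median log2 fold change was -0.01. *Klrc1*, which encodes the NK receptor chain NKG2A, was 3.11 and 1.97 FPKM in the controls and 11.2 and 12.3 in the KO libraries. It passed the filter only through its KO mean (11.8 FPKM, against 2.54 in control), the group where it was high, and its call is read with that limit. It was higher in KO cells with a log2 fold change of 1.87 (SE 0.24, limma unadjusted p = 8.95e-05), and it was the gene of the lists with an adjusted p below 0.05 (0.0326, with a range of 0.00585 to 0.319 over the alternatives). The adjusted call was kept in 9 of 14 alternatives and lost without KO 1 (limma adjusted p = 0.181) and without KO 2 (adjusted p = 0.24). Its relatives *Klrc2* and *Klrc3*, which are alike in sequence, were at most 0.37 FPKM.

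*Pdcd1*, which encodes PD-1, went the other way, from 91.8 and 119 FPKM in the controls to 63.8 and 52.1 in the KO libraries (log2 fold change -0.85, SE 0.17, limma unadjusted p = 0.00118, adjusted p = 0.0816). *Klrg1*, a receptor for cadherins, fell from 411 and 403 FPKM to 282 and 344 (log2 fold change -0.38, SE 0.13, limma unadjusted p = 0.0176, adjusted p = 0.221), a call that was lost without KO 1 (unadjusted p = 0.153). *Pecam1*, an adhesion molecule, was 34.6 and 36.3 FPKM in the controls and 49.2 and 42.7 in the KO libraries (log2 fold change 0.36, SE 0.13, limma unadjusted p = 0.0288, adjusted p = 0.252). *Milr1*, which encodes Allergin-1, was 9.31 and 8.19 FPKM in the controls and 12.05 and 13.2 in the KO libraries (log2 fold change 0.48, SE 0.18, limma unadjusted p = 0.0276, adjusted p = 0.247). The calls of *Pecam1* and *Milr1* were lost in 3 and 4 of 14 alternatives, among them those without control 1 or KO 1 for *Pecam1* (limma unadjusted p = 0.0884 and 0.204) and without control 2, KO 1 or KO 2 for *Milr1* (unadjusted p = 0.109, 0.0666 and 0.135). *Tigit*, the highest of the list at 3241 and 3029 FPKM in the controls and 2962 and 2649 in the KO libraries, had a log2 fold change of -0.16 (SE 0.12, adjusted p = 0.552).

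**Figure D5:**
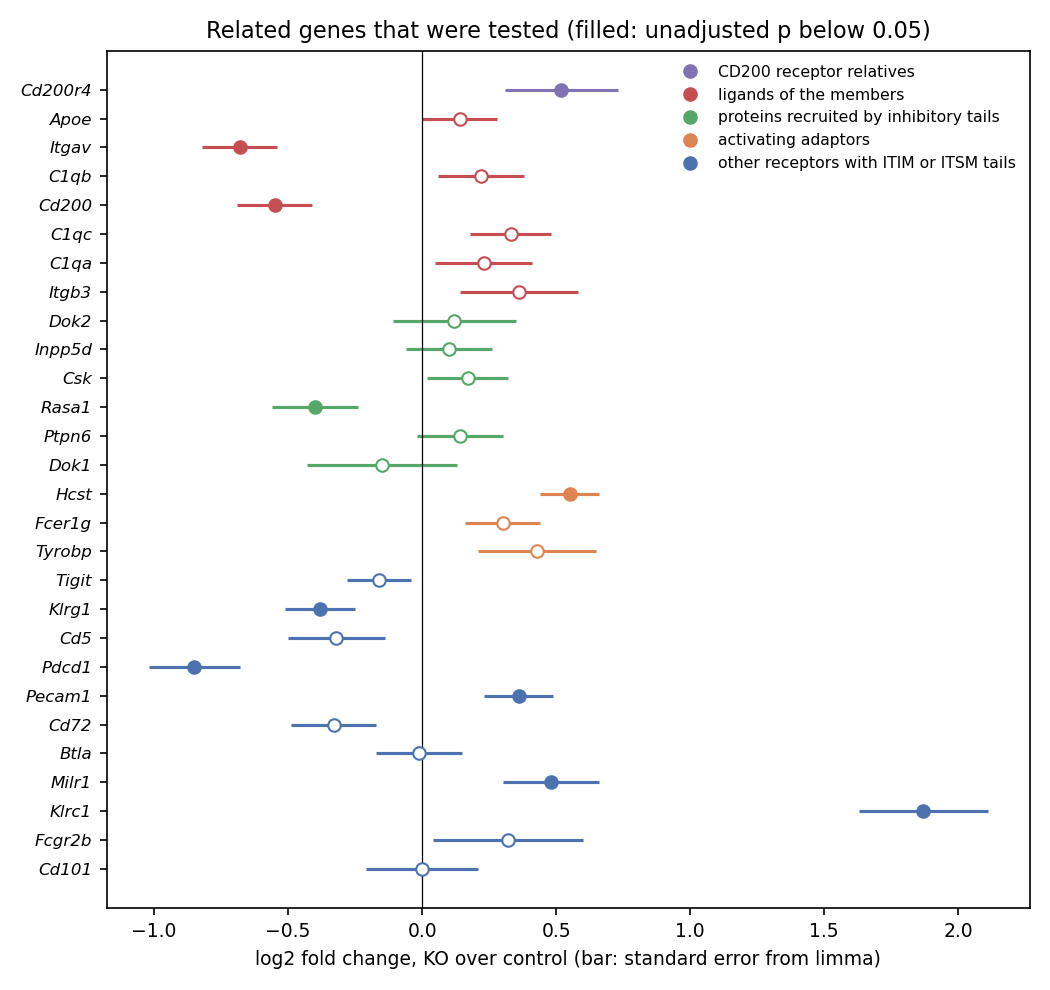
Log2 fold change of KO over control for the 28 related genes that were tested, coloured by list, with bars for the standard error from limma and filled points for an unadjusted p below 0.05. *Klrc1* lies farthest to the right at 1.87 and *Pdcd1* farthest to the left at -0.85, with 5 filled points on each side of 0.

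Because gp49 genes are also known from mast cells and myeloid cells, the markers of these cells were read in the same libraries. The summed FPKM of 10 mast cell markers was 31.1 and 32.9 in the controls and 29.3 and 29.5 in the KO libraries, and nearly all of it came from 2 genes that went opposite ways. *Kit*, a growth factor receptor, was 16.5 and 18.8 FPKM in the controls and 12.2 and 11.4 in the KO libraries, and was lower in KO cells (log2 fold change -0.55, SE 0.16, limma unadjusted p = 0.011, adjusted p = 0.184), a call lost without control 2 (unadjusted p = 0.0606) or KO 2 (unadjusted p = 0.0646). *Hdc*, the enzyme that makes histamine, was 14.4 and 13.7 FPKM in the controls and 16.9 and 17 in the KO libraries, and did not pass the test (log2 fold change 0.25, SE 0.15, limma adjusted p = 0.454). *Mcpt2*, *Mcpt4*, *Cma1* and *Tpsb2*, the genes of mast cell proteases, were listed at 0 in all 4 libraries. *Mcpt1* was at most 0.11 FPKM, and *Cpa3* was 0.13 and 0 FPKM in the controls and 0.15 and 1 in the KO libraries.

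The summed FPKM of 12 macrophage and monocyte markers was 499 and 491 in the controls and 521 and 632 in the KO libraries, so both KO sums lay above both control sums. The highest were *Ccr2*, a chemokine receptor that T cells also carry, at 190 and 219 FPKM in the controls and 214 and 284 in the KO libraries, and *Lyz2*, which encodes lysozyme, at 152 and 132 in the controls and 128 and 168 in the KO libraries. The groups overlapped for both genes. Of 9 tested, 3 (*Cd14*, *Fcgr3* and *Adgre1*) were higher with groups that did not overlap, beside 24.2% of all genes, and 1 passed the test at an unadjusted p, beside 8.61%. This was *Fcgr3*, an activating Fc receptor, at 12.5 and 8.98 FPKM in the controls and 16.02 and 20.6 in the KO libraries (log2 fold change 0.72, SE 0.21, limma unadjusted p = 0.0105, adjusted p = 0.18), a call lost without KO 2 (unadjusted p = 0.0856). *Adgre1* passed the filter only through its KO mean of 5.92 FPKM, against 4.02 in control. *Mrc1* and *Itgam*, too low to be tested, were also higher in both KO libraries, at up to 1.63 and 0.76 FPKM. The dendritic cell markers summed to 6.88 and 9.44 FPKM in the controls and 10.7 and 11.2 in the KO libraries. The highest of them, *Zbtb46*, overlapped between the groups, while *Xcr1*, *Cd209a*, *Itgax* and *Siglech*, at most 3.43 FPKM each and not tested, were higher in both KO libraries. Some markers of myeloid cells were thus higher in both KO libraries. Among those tested, *Ccr2*, *Lyz2*, *C1qa*, *C1qb*, *Cd68*, *Csf1r* and *Zbtb46* overlapped between the groups. All 9 tested macrophage and monocyte markers had positive log2 fold changes, from 0.04 (*Cd68*) to 0.72 (*Fcgr3*). Their median was 0.23, against -0.004 over all genes. *C1qc*, read above with the ligands, was 23 and 21.3 FPKM in the controls and 30.5 and 25.8 in the KO libraries, without overlap. The part of myeloid cells in the gp49 values was not tested.

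Neutrophil markers summed to at most 1.9 FPKM (highest *Mpo*), NK cell and ILC markers to at most 0.65 (highest *Klrb1c*) and CD8 T cell markers to at most 2.96 (highest *Cd8b1*). Eosinophil markers summed to 11.8 and 11.7 FPKM in the controls and 7.14 and 10.3 in the KO libraries, nearly all from *Ccr3*. The sum of B and plasma cell markers, led by *Igha*, was 405 and 608 in the controls and 419 and 497 in the KO libraries. Epithelial markers summed to 47.1 and 46.5 FPKM in the controls and 47.7 and 43.1 in the KO libraries. Among them *Epcam* was lower in KO cells (log2 fold change -0.53, limma unadjusted p = 0.00644, adjusted p = 0.147) and *Krt18* was higher (0.61, unadjusted p = 0.0207, adjusted p = 0.224). *Krt18* passed the filter only through its KO mean (7.2 FPKM, against 4.38 in control). The *Epcam* call was lost without KO 1 (limma unadjusted p = 0.0516), and that of *Krt18* without control 1, KO 1 or KO 2 (unadjusted p = 0.0717, 0.0701 and 0.0657).

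The 8 Treg and T cell markers summed to 4325 and 4841 FPKM in the controls and 5109 and 5337 in the KO libraries. Both KO sums were the higher ones, but the markers went both ways. *Ctla4* and *Cd3d* were higher and *Il2ra* and *Ikzf2* lower in both KO libraries, and the others overlapped. Over all genes tested, 24.2% were higher and 22.9% lower without overlap. Of 7 tested, 1 was higher and 1 was lower, beside 8.61% and 7.57% of all genes. *Tnfrsf18*, which encodes GITR and had the highest mean over the libraries, was 1899 and 2218 FPKM in the controls and 2108 and 2218 in the KO libraries. *Ctla4*, an inhibitory receptor of Treg cells, was 1593 and 1701 FPKM in the controls and 2160.0 and 2310.4 in the KO libraries, and was higher in KO cells (log2 fold change 0.44, SE 0.11, limma unadjusted p = 0.00491, adjusted p = 0.132). *Ikzf2*, which encodes Helios, was 121 and 116 FPKM in the controls and 84.1 and 98.4 in the KO libraries, and was lower (log2 fold change -0.37, SE 0.12, limma unadjusted p = 0.0183, adjusted p = 0.222), a call lost without control 1 (unadjusted p = 0.059) or KO 1 (unadjusted p = 0.152). *Foxp3* itself was 2.62 to 5.61 FPKM in all 4 libraries.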

How the data were processed

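Reads (150 bp, paired) were aligned by the authors with STAR 2.5 against GRCm38 and quantified with RSEM 1.2, and FPKM of 53379 genes were deposited. With each library ordered by FPKM, 2172 of the top 5000 places carried equal values throughout, as quantile normalization gives, and the sources used here name no such step. Depth per library is therefore unknown and no count test was run. Protein-coding genes averaging above 5 FPKM in at least 1 group (7639) were fitted as log2(FPKM + 1), KO against control, with limma 3.58.1 in R 4.3.3 (empirical Bayes with a trend, Benjamini-Hochberg adjustment). Log2 fold changes are on this scale, which understates changes of low genes. The fit was tested on simulated data.

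Gene types, positions and sequences came from GENCODE M21 (GRCm38), which held 53274 of the identifiers, and promoters from RefSeq. An exact permutation test with 2 against 2 cannot go below 0.333. Members, lists and the rule for named genes (called genes and the 2 highest of each related list, the highest of each marker list, neighbours, the 5 profiles nearest to *Lilr4b*) were chosen with earlier results of these data known. Further genes of the lists outside this rule (such as *Itgb3*, *Fn1*, the C1q genes, *Ptpn6*, *Tyrobp*, and markers other than the highest of their list) were named after their values were seen. Tables and figures were made in Python 3.11.15 with numpy 2.4.6, pandas 2.3.3 and matplotlib 3.10.9. The alternatives were other pseudocounts, filters, gene types and scalings, no trend, a replicate block, and each library left out.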

Additional observations from a re-analysis of the deposited data

How the results depend on the processing

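The groups had 2 pools each, and depth is not known, so the precision is that of the spread between pools. Over the alternatives for each member, the log2 fold change was 1.05 to 1.15 for *Lilr4b*, 0.52 to 0.60 for *Lilrb4a*, 0.53 to 0.78 for the readthrough row and 0.84 to 0.94 for the summed gp49 rows. The ends of these gp49 ranges all came from leaving a library out. Pseudocounts, scalings and blocks can hardly change the log2 fold change of rows this high, so they are no check on it. The log2 fold change was 0.06 to 0.82 for *Cd300a* and -0.51 to -0.05 for *Cd300lf*. It took both signs for *Lair1* (-0.05 to 0.61) and *Cd200r1* (-0.14 to 0.29) when libraries were left out. *Cd300a* moved from 0.36 to 0.72 with a pseudocount of 0.1 and to 0.82 with none, since a pseudocount of 1 exceeds its control values. For all genes, 658 were higher and 578 lower by the unadjusted limma p, and 24 and 21 by the adjusted p. Without a filter, 1170 were higher unadjusted, 0 and 0 were called adjusted, and 8 related genes were higher. With a mean FPKM of at least 1, 11 were lower adjusted. With all gene types, 5 and 8 were called adjusted, and without the trend 1 and 2. The authors' methods describe the mice as littermates, but which pools shared litters is not stated in the sources used here. Same-numbered libraries did not deviate together (correlation -0.305), so the numbers were not taken as pairs. Whether pools were paired under other numbers is not known. With the replicate number as a block, 419 were higher and 377 lower unadjusted, 15 and 12 adjusted, and 2 related genes were higher. A crossed pairing, chosen after seeing the data, gave 1008 and 983 unadjusted, 240 and 225 adjusted, and 8 related genes higher. With 1 library left out, 330 to 650 were higher and 314 to 600 lower unadjusted, 1 to 36 and 1 to 30 adjusted, with 3 to 7 related genes higher. The lowest adjusted counts came without KO 1, and without KO 2 for higher genes too. The causes were not tested. The remaining values kept their size within the replicate spread, or within 1.5 times for counts.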
